A study of Arabidopsis thaliana with 36 samples.

Results

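The psbD-psbC-psbZ operon is a stretch of the Arabidopsis thaliana plastid genome that encodes 3 subunits of photosystem II. Its genes psbD (ArthCp017, 1062 bp), psbC (ArthCp018, 1422 bp) and psbZ (ArthCp019, 189 bp) were taken by their annotated spans, as 3 of the 113 plastid genes. The 1270 bp spacer between the tRNA gene trnT and psbD was added as a region of its own. The whole stretch runs from position 31441 to 35939 of the plastid sequence in the deposited tables (TAIR10, per the header of the leaf table), with psbZ at 35751 to 35939, and was read in 90 windows of 50 bp. The first 53 bp of psbC lie inside psbD, and 609 bp that hold a trnS gene separate psbC from psbZ.

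The libraries came from chloroplasts crosslinked with formaldehyde, in which protein-bound DNA was immunoprecipitated (ptChIP) and sequenced beside input DNA of the same kind of preparation. Leaf samples were 14-day-old wild-type plants of ecotype Col0 grown in day and night cycles, collected either after 2 h of light (Day) or following 24 h of total darkness (Night). The antibody was against RpoB, part of the catalytic core of the plastid-encoded RNA polymerase. Seedling samples were about 4 days old and grown in continuous light, and they comprised Col0, sig2-2, chl27 and chlm. With the leaf samples there were 6 plant groups of 3 ChIP and 3 input libraries, 36 in all. Each leaf sample pooled 5 g of rosette leaves and each seedling sample pooled 50 seedlings. No antibody is given in the seedling labels, which also enter every line as wild type under genotype; lines therefore follow the title and cell line entries. The affected nuclear genes lie outside the plastid tables and could not be checked. Nothing in the labels says that replicates were grown separately, so p-values measure the spread between these samples, which may be technical.

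As background, psbD encodes D2, which forms the reaction centre of photosystem II together with D1, the product of psbA. psbC encodes CP43, the inner antenna protein that passes light energy to the reaction centre, and psbZ encodes a small membrane subunit at the edge of the complex. The 3 genes are co-transcribed from several promoters. One of them lies far upstream in the spacer, responds to light and depends on the sigma factor SIG5, and in tobacco psbC is also transcribed from a promoter inside psbD. SIG2, affected in sig2-2, is a sigma factor used by this polymerase mainly at a set of tRNA genes. CHL27 and CHLM are enzymes of chlorophyll synthesis.

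Values are log2 ratios of ChIP to input, each as a share of the plastid coverage of its library, so 0 stands for the average of the plastid genome. Mean coverage per position was 425 to 1039 in the Day ChIP libraries, 102 to 480 in the Night ChIP libraries, 1017 to 1395 in the leaf inputs and 1132 to 3165 in the seedling libraries. How many reads lie behind a value is unknown, and coverage was not split by strand, so transcription units on opposite strands cannot be told apart. Coverage of psbC went down to 86.0 in a Night ChIP library and reached 3155 in a seedling input. A large part of ChIP coverage lies in the inverted repeats and differs between groups. The scaling therefore shifts every gene together: centring each library on its median gene moved the median change by more than 0.1 in the comparisons of Night, sig2-2 and chl27, whose uncentred medians over all genes were 0.53, 0.36 and 0.16 (0.02 in chlm). Relations between genes of the same library do not depend on this scaling and are given beside the changes.

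In leaves the profile along the operon had a high start, a trough ahead of psbD and a series of summits, and it was the same in outline by Day and at Night. The highest window of the spacer was the first one, next to trnT and centred at −1245 bp from the psbD start. It was at 2.08, 2.12 and 1.46 in the 3 Day replicates and at 2.63, 3.31 and 2.59 in the Night replicates. Coverage here is shared with reads over trnT, the most enriched of the 113 genes in both conditions (2.31 ± 0.31 by Day and 3.25 ± 0.32 at Night, SD, n = 3). A second summit stood inside the spacer, in the window at −945 bp by Day and at −995 bp at Night. The Day replicates were at 1.74, 1.60 and 0.70 at this summit, and the Night replicates at 1.59, 1.86 and 1.44 at theirs. It is a summit of the means and was not present in every replicate. Night replicate 2 fell without a break from 3.31 in the first window to 1.72 at −945 bp. Day replicate 2 rose to this summit only from 1.52 to 1.60. In the spacer 9 of 25 windows were higher than input and 6 lower by Day (limma, adjusted over 2592 windows of the plastid genome), and 10 higher and 5 lower at Night. Of all plastid windows 89.8% differed from input by Day (19.8% higher, 69.9% lower) and 87.7% at Night (22.3% and 65.3%).

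The lowest window of the stretch lay at −245 bp in both leaf conditions, between the upstream summit and the gene. Its value was −0.65 ± 0.44 (SD, n = 3) by Day (adjusted p = 0.00215) and −0.54 ± 0.21 at Night (adjusted p = 0.00813). Centred on the median window, the same windows stood at 1.01 and 0.24, so this low point is relative to its surroundings. Signal then went up across the psbD start to a summit at 155 bp by Day (0.44 ± 0.25) and at 205 bp at Night (0.84 ± 0.14). The next summit lay at 855 bp by Day (0.68 ± 0.04) and at 805 bp at Night (0.30 ± 0.16), within the last part of psbD and ahead of the psbC start. In psbC a window at 2055 bp was highest by Day, at 0.56 ± 0.31, and stood at 0.00 ± 0.08 at Night. The largest summit downstream of psbD covered trnS (ArthCt117), a serine tRNA gene read from the opposite strand, at 1.51 ± 0.13 by Day and 1.08 ± 0.28 at Night. Summits were defined as windows above the 3 windows on either side, a rule chosen after the profiles had been seen, and they are given as positions without a test of their own.

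**Figure D1:**
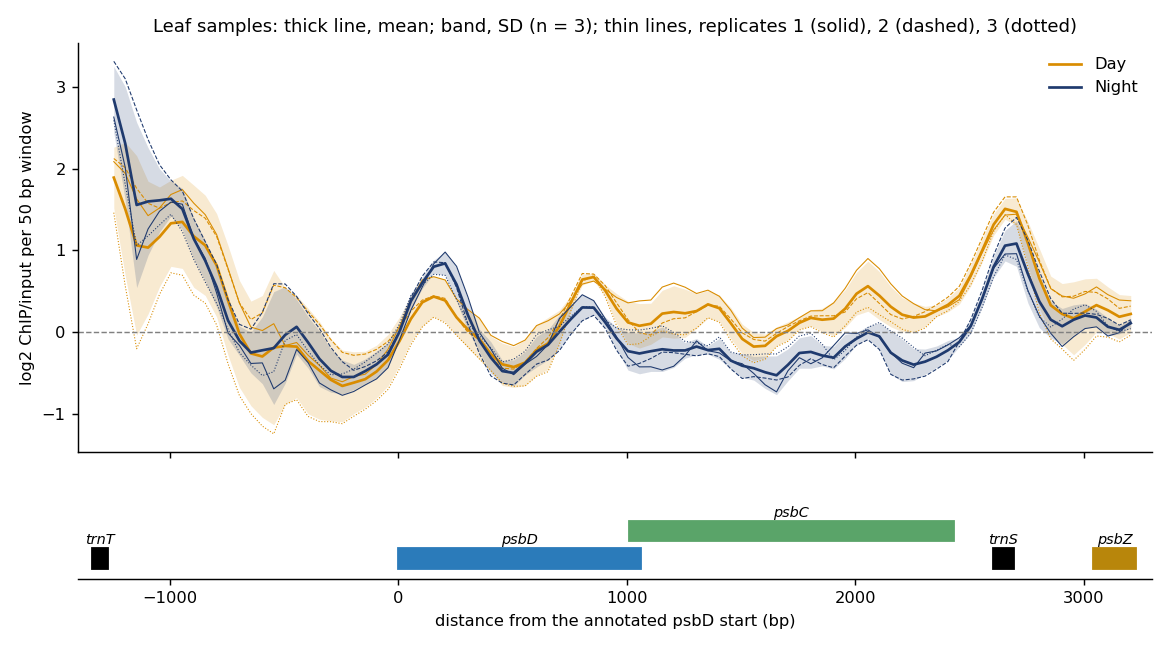
Log2 ChIP to input per 50 bp window (vertical axis) against the distance of the window centre from the annotated psbD start in bp (horizontal axis) in Day and Night leaves, with thick lines for means, bands for SD (n = 3) and thin lines for single replicates; boxes mark the annotated genes. Both conditions start high beside trnT, dip to −0.65 and −0.54 ahead of psbD, and separate over psbC, where Night lies below Day.

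Averaged over whole genes, the 3 members lay near the plastid average in leaves. psbD was at 0.33, 0.18 and −0.06 in the Day replicates and at 0.19, 0.05 and 0.17 in the Night replicates. The 2 sets overlap, and neither mean differed from input (0.15 ± 0.19, adjusted p = 0.195, and 0.14 ± 0.08, adjusted p = 0.240, SD, n = 3). psbC was at 0.40, 0.19 and 0.02 by Day and at −0.30, −0.38 and −0.11 at Night. All Night values of psbC were below all Day values; the Day mean of 0.20 ± 0.19 did not pass the test (adjusted p = 0.0876) and the Night mean of −0.26 ± 0.14 was below input (adjusted p = 0.0328). psbZ was at 0.45, 0.37 and −0.06 by Day and at 0.03, 0.16 and 0.09 at Night. Its Day mean of 0.25 ± 0.28 was above input by a narrow margin (adjusted p = 0.0469), and its Night mean of 0.09 ± 0.06 was not (adjusted p = 0.442). The spacer was at 0.73, 0.81 and −0.22 by Day and at 0.48, 1.03 and 0.44 at Night, with means of 0.44 ± 0.58 (adjusted p = 0.0240) and 0.65 ± 0.33 (adjusted p = 0.00160). Thus 1 of the 3 genes was higher by Day and 1 was lower at Night. Of all 114 features tested, 93% differed from input by Day (34.2% higher, 58.8% lower) and 88.6% at Night (36% higher, 52.6% lower). The calls depend on the scaling. Centred on the median gene, psbD was at 1.08 and psbC at 1.14 by Day, both above input. At Night psbD and psbZ were then at 0.52 and 0.48, both above input, and psbC turned to 0.12 (limma, adjusted p = 0.244). Centring put 53 of all 113 genes above input by Day and 51 at Night. Scaled to coverage outside the repeats, psbD was at 0.54 and psbC at 0.60 by Day, both above input. The median over all 113 genes was then −0.46 by Day, and counts of calls over all genes are not given for this scaling.

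Day replicate 3 was the lowest of the Day replicates in the spacer and in each gene. Without it psbD stood at 0.25 (adjusted p = 0.00682) and psbC at 0.30 (adjusted p = 0.00664) by Day, both above input, and the spacer at 0.77. Without Day replicate 1 or 2 the spacer no longer passed the test, at 0.30 (adjusted p = 0.222) and 0.25 (adjusted p = 0.275), and psbZ did not pass either, at 0.15 (adjusted p = 0.196) and 0.19 (adjusted p = 0.159). The call of psbZ was also lost without any one of the 3 Day inputs (adjusted p = 0.0619, 0.118 and 0.112 for inputs 1, 2 and 3), and that of the spacer without input 3 (0.36, adjusted p = 0.0684). The call of psbC at Night was lost without Night replicate 1 (−0.24, adjusted p = 0.0780) or 2 (−0.20, adjusted p = 0.125), and without any one of the 3 Night inputs (adjusted p = 0.0903, 0.0900 and 0.0653 for inputs 1, 2 and 3). The mean over the spacer rests on its first windows: with the median coverage of the spacer in place of the mean, its value was −0.13 by Day and −0.10 at Night.

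**Figure D2:**
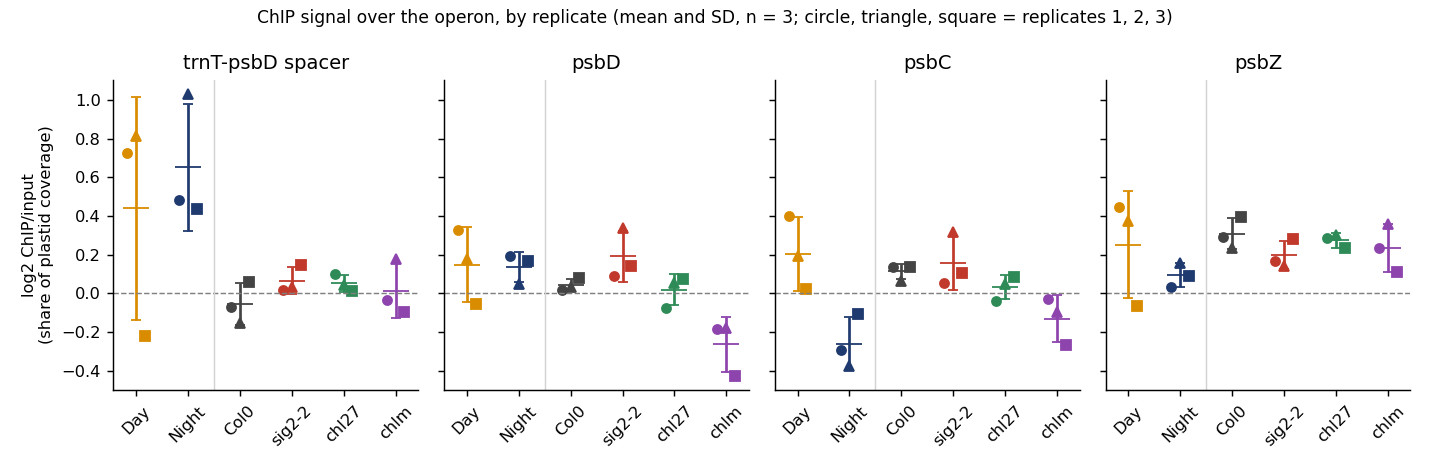
Log2 ChIP to input (vertical axis) of the spacer, psbD, psbC and psbZ in the 6 plant groups (horizontal axis), with a symbol for each of the 3 replicates, a bar for the mean and whiskers for SD. Day replicate 3 lies apart in the spacer (−0.22 against 0.73 and 0.81), psbC at Night lies below psbC by Day, and psbD in chlm lies below psbD in Col0.

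Against other protein-coding genes the operon stood high in each plant group. Within a library, psbD exceeded the median protein-coding gene by 1.89 ± 0.18 (log2 coverage per bp, SD, n = 3) in Day ChIP and by 0.20 ± 0.04 in Day inputs. The 3 Day ChIP libraries were at 2.09, 1.74 and 1.84, and every one lay above every input. At Night this lead was 0.94 ± 0.06 in ChIP (0.99, 0.97 and 0.87) and 0.08 ± 0.02 in inputs. Col0 seedlings had a lead of 0.83 ± 0.05, which was 0.45 ± 0.15 for sig2-2, 0.58 ± 0.05 for chl27 and 0.63 ± 0.07 for chlm, against means of −0.08 to 0.00 in the inputs. ChIP and input libraries did not overlap in any of the 6 groups, with an exact two-sided permutation p of 0.1 each, the smallest that 3 against 3 libraries can give. The lead was smaller at Night than by Day, and smaller in each of the 3 lines than in Col0, without overlap of the ChIP libraries (differences of −0.95, −0.39, −0.25 and −0.20, exact permutation p = 0.1 each). The adjusted p over the family of 40 such relations was 0.182. The lead combines the value of psbD with that of the median gene, which itself differed between groups. By enrichment psbD ranked 7th of 79 protein-coding genes by Day, 13th at Night, 12th in Col0, 9th in sig2-2, 13th in chl27 and 17th in chlm. psbC ranked between 6th by Day and 20th at Night, and psbZ between 5th and 16th.

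**Figure D3:**
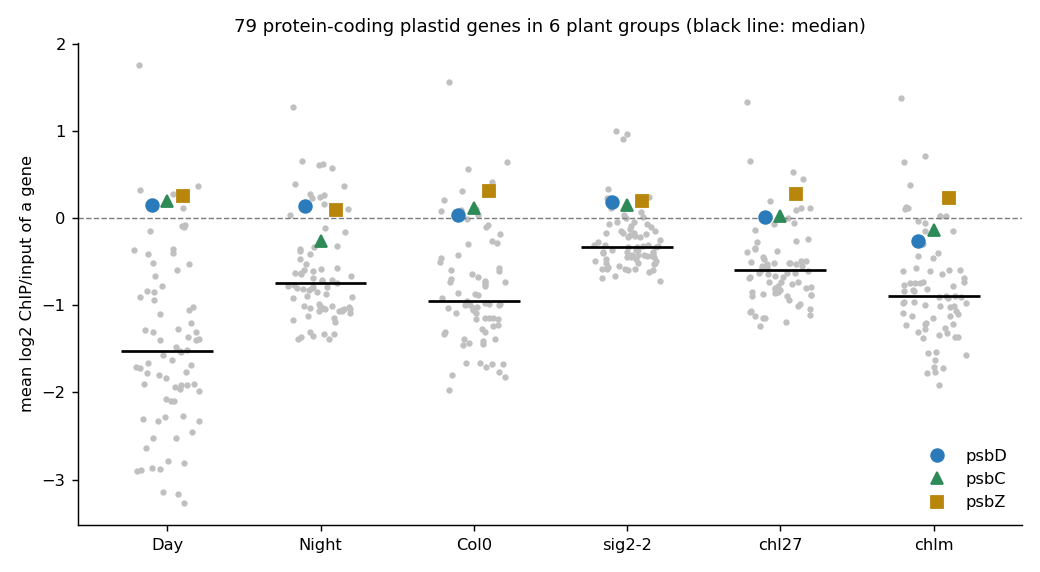
Mean log2 ChIP to input (vertical axis) of each of the 79 protein-coding genes in the 6 plant groups (horizontal axis), with psbD, psbC and psbZ as coloured symbols, all other genes in grey and the group median as a black line. The 3 genes lie above the median of every group, and the distance is widest by Day, where the median is −1.53.

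The genes whose levels over the 6 groups were closest to the mean of psbD and psbC were rps14, psbM, psaJ, ndhJ and petN. Closeness was the root mean square difference of the log2 ChIP to input values over 6 group means, and it was 0.19 for rps14, 0.20 for psbM, 0.23 for psaJ, 0.27 for ndhJ and 0.28 for petN. Over all genes its median was 1.08. It measures level and not the direction of change. From Day to Night the mean of psbD and psbC went from 0.18 to −0.06, and rps14 from 0.38 to 0.23. The other genes went the other way, psbM from 0.11 to 0.13 and psaJ from −0.10 to 0.27. ndhJ went from −0.37 to 0.17 and petN from −0.40 to 0.03. rps14 is the protein-coding gene that follows psbZ on the map, and psbM encodes another small photosystem II subunit.

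The change from Day to Night asks whether binding over the operon differs with light. psbC fell by 0.46 ± 0.16 on the log2 scale (SE, limma, adjusted p = 0.0112), from 0.20 to −0.26, with no overlap of replicates. Among all features 70.2% changed, 57.9% higher and 12.3% lower at Night. psbD (−0.01 ± 0.15, adjusted p = 0.933), psbZ (−0.16 ± 0.17, adjusted p = 0.414) and the spacer (0.21 ± 0.26, adjusted p = 0.473) did not pass the test. Their 95% intervals were −0.33 to 0.30 for psbD, −0.50 to 0.19 for psbZ and −0.31 to 0.74 for the spacer. Without Day replicate 3 the change of psbZ was −0.32 and passed the test (adjusted p = 0.0132), and that of the spacer turned to −0.12 (adjusted p = 0.602).

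The fall of psbC held in each alternative fit that was run, with values from −1.01 to −0.37. Relative to the median gene, which rose by 0.53, the operon genes were lower at Night as a whole. Centred on the median gene, psbC changed by −1.01 (adjusted p = 4.11e-05), psbZ by −0.70 (adjusted p = 1.05e-04) and psbD by −0.56 (adjusted p = 0.00159). With scaling to coverage outside the repeats these changes were −0.91, −0.60 and −0.45, and each passed the test. The median change over all 113 genes was 0.09 with that scaling, for which counts of calls over all genes are not given. Of all 113 genes, 35 rose and 36 fell when centred. The spacer then turned to −0.33 when centred and −0.23 with scaling outside the repeats, neither past the test (adjusted p = 0.214 and 0.387).

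Along the stretch, 33 of 90 windows changed from Day to Night, 2 higher and 31 lower, against 71.2% (62% higher, 9.22% lower) over all windows of the plastid genome. The fall was densest in psbC, where 23 of 28 windows were lower and none was higher, with changes between −0.57 and −0.26. It extended from the window at 805 bp, within psbD, to the trnS window at 2655 bp. The largest fall was at 2505 bp, between psbC and trnS, from 0.70 ± 0.13 (SD, n = 3) by Day to 0.08 ± 0.08 at Night (change −0.62 ± 0.14, SE, adjusted p = 8.15e-04). The 2 higher windows were the one next to trnT (0.95 ± 0.31, adjusted p = 0.0111) and the one at 205 bp in psbD (0.45 ± 0.17, adjusted p = 0.0281). The first of these did not pass when libraries were centred on the median window (0.07). It also missed the test with scaling outside the repeats (0.51, limma, adjusted p = 0.0846). Centring moves all windows of a comparison by the same amount, so the smaller rise at 205 bp comes out below 0.07. The upstream summit did not pass the test, with a change of 0.16 ± 0.28 at −945 bp (adjusted p = 0.627). Neighbouring windows share reads and are not independent sites.

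A comparison within each library gives the same contrast between psbD and psbC without any scaling. The log2 ratio of psbD to psbC coverage was −0.05, 0.01 and −0.05 in Day ChIP, and 0.53, 0.47 and 0.32 in Night ChIP. In inputs the 3 values were 0.04, 0.04 and 0.00 by Day and 0.02, 0.04 and 0.07 at Night. Every Night ChIP library thus lay above every other leaf library. The Night minus Day difference of the ChIP means was 0.47 (exact permutation p = 0.1, the smallest possible; adjusted p = 0.182). This ratio was added after the values of both genes had been seen. The ratio of spacer to psbC behaved alike: it was −0.17, 0.13 and −0.74 in Day ChIP and 0.39, 1.02 and 0.16 in Night ChIP, with means of −0.50 and −0.39 in the inputs (Night minus Day difference 0.79, exact permutation p = 0.1). The ratio of psbD to psbZ was 0.11 ± 0.10 by Day and 0.24 ± 0.14 at Night, with overlap (exact permutation p = 0.3).

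The Night ChIP libraries were also the shallowest, and whether depth takes part in the fall of psbC was not tested. The inputs of the 2 conditions did not differ for any member in the shared fit (0 of 114 features passed, and 1 had an unadjusted p under 0.05). A fit of inputs alone called 15 features, among them psbD (−0.11, adjusted p = 0.0179) and psbC (−0.13, adjusted p = 0.00680), both lower in Night inputs.

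**Figure D4:**
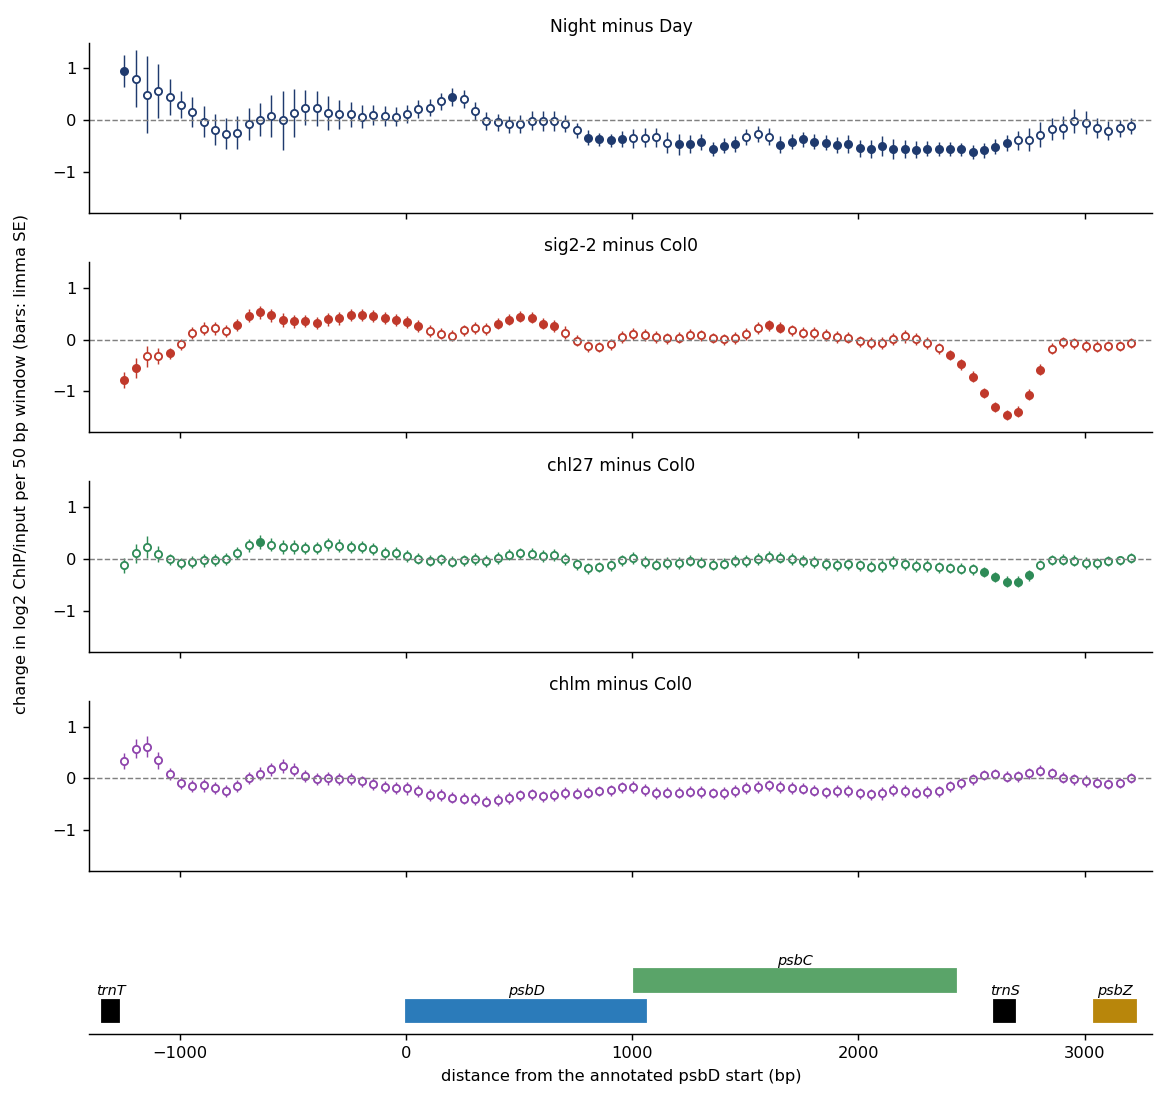
Change in log2 ChIP to input per 50 bp window (vertical axes; bars are limma SE) against the distance from the annotated psbD start in bp (horizontal axis), for Night minus Day and for each line minus Col0; filled symbols have an adjusted p under 0.05. From Day to Night the filled symbols lie below 0 over psbC, in sig2-2 they form a trough of −1.47 at trnS, and in chlm none is filled.

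In Col0 seedlings, the operon had the same order of features at lower amplitude in the spacer. The first window beside trnT was at 1.36, 1.29 and 1.46 (limma, adjusted p = 1.06e-14). The signal dropped to 0.36 ± 0.15 at −1145 bp and was back at 0.52 ± 0.13 at −995 bp. This rise did not count as a separate summit by the rule used. The trough at −195 bp reached −0.67 ± 0.15. Within the genes, windows at 205 bp (0.14 ± 0.05), 855 bp (0.50 ± 0.07) and 2055 bp (0.31 ± 0.06) were summits, and the trnS summit stood at 1.86 ± 0.07. Leaf and seedling tables were fitted apart, and their values are set side by side without a test.

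psbZ was the clearest of the 3 genes in seedlings. It was at 0.29, 0.24 and 0.39 in Col0 and was above input in all 4 lines. Col0 had a mean of 0.31 ± 0.08 (SD, n = 3, adjusted p = 2.90e-05), sig2-2 of 0.20 ± 0.07 (adjusted p = 0.00594), chl27 of 0.27 ± 0.04 (adjusted p = 1.55e-04) and chlm of 0.23 ± 0.12 (adjusted p = 8.98e-04). Of all features, 91.2% differed from input for Col0 (36% higher, 55.3% lower), 82.5% for sig2-2 (31.6% and 50.9%), 88.6% for chl27 (35.1% and 53.5%) and 90.4% for chlm (34.2% and 56.1%). The replicates of psbD were at 0.02, 0.03 and 0.08 for Col0, at 0.09, 0.34 and 0.14 for sig2-2, at −0.08, 0.05 and 0.07 for chl27, and at −0.18, −0.18 and −0.43 for chlm. psbD was above input in sig2-2 (0.19 ± 0.13, adjusted p = 0.0129), below input in chlm (−0.27 ± 0.14, adjusted p = 5.91e-04), and did not differ past the threshold in Col0 and chl27 (adjusted p = 0.557 and 0.825). The psbC replicates were at 0.14, 0.07 and 0.14 for Col0, 0.05, 0.32 and 0.10 for sig2-2, −0.04, 0.05 and 0.08 for chl27, and −0.03, −0.10 and −0.27 for chlm. Only the sig2-2 mean of 0.16 ± 0.14 passed the test (adjusted p = 0.0364). The spacer lay between −0.16 and 0.18 in all 12 seedling ChIP libraries and passed in none of the 4 lines. Of the 90 windows, 32 were higher and 21 lower than input for Col0, beside 94% of all plastid windows (22.6% higher, 71.4% lower). These counts were 38 and 3 for sig2-2 (80.9%, as 18.4% and 62.5%), 25 and 17 for chl27 (93.1%, as 23% and 70.1%) and 23 and 43 for chlm (95.1%, as 23.5% and 71.6%).

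The calls of psbD and psbC in sig2-2 rested on replicate 2, without which they were 0.12 (adjusted p = 0.155) and 0.08 (adjusted p = 0.341). Those values were also not past the test without input replicate 3 (0.16 with adjusted p = 0.0624, and 0.13 with adjusted p = 0.144), and psbC missed it without input replicate 1 (0.16, adjusted p = 0.0643). Without chlm replicate 1, psbC was below input in chlm (−0.18, adjusted p = 0.0255). The position of a gene against input depends on the scaling in every line. Centred on the median gene, psbD and psbC were above input in all 4 lines, chlm included (0.32 and 0.45). Of all 113 genes, this centring put 54 above input for Col0, 46 for sig2-2, 52 for chl27 and 55 for chlm.

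**Figure D5:**
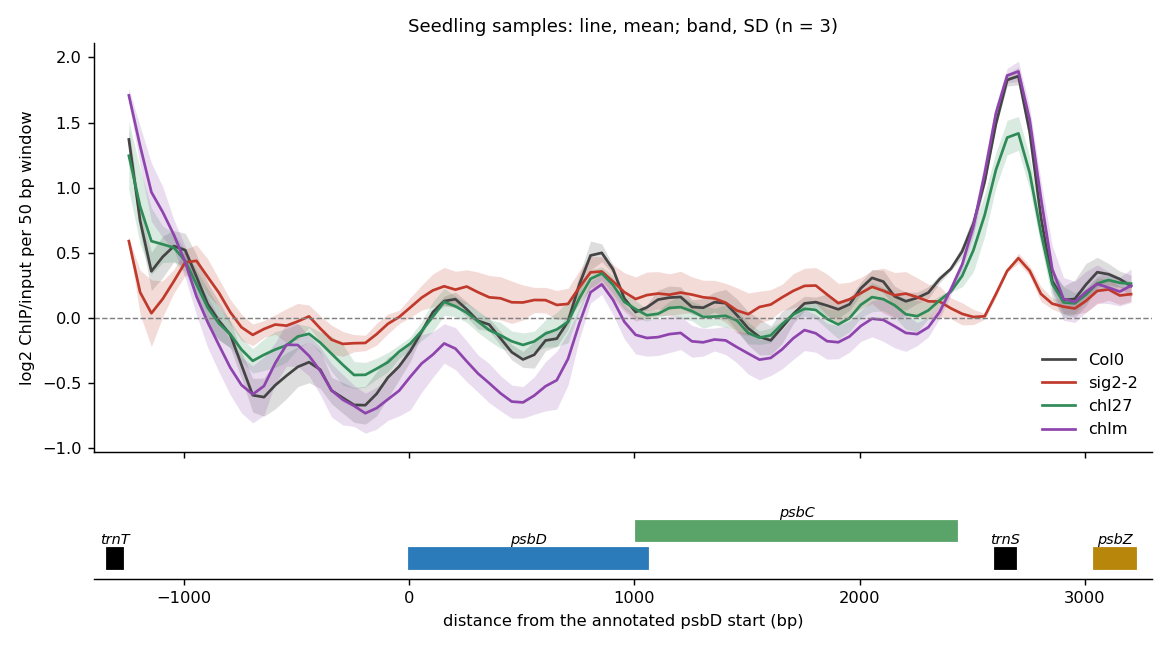
Log2 ChIP to input per 50 bp window (vertical axis) against the distance of the window centre from the annotated psbD start in bp (horizontal axis) in Col0, sig2-2, chl27 and chlm seedlings, with lines for means and bands for SD (n = 3). sig2-2 is the flattest profile, with 0.46 at trnS where Col0 stands at 1.86, and chlm lies lowest over psbD.

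The comparisons of the lines with Col0 ask where binding depends on SIG2 or on chlorophyll synthesis. They share the Col0 libraries and are not independent of each other. In sig2-2 none of the 3 genes and not the spacer changed past the test, whereas 86% of all features did (52.6% higher, 33.3% lower). The changes were 0.15 ± 0.10 for psbD (SE, adjusted p = 0.158; 95% interval −0.05 to 0.35), 0.04 ± 0.10 for psbC (adjusted p = 0.663; −0.16 to 0.24), −0.11 ± 0.09 for psbZ (adjusted p = 0.241; −0.30 to 0.07) and 0.12 ± 0.10 for the spacer (adjusted p = 0.241; −0.08 to 0.32). The replicates of psbD did not overlap with those of Col0. When libraries were centred, the signs of psbD, psbC and the spacer turned, to −0.17, −0.28 and −0.20, of which psbC and the spacer passed the test (adjusted p = 0.00506 and 0.0446). psbZ was lower under centring (−0.43, adjusted p = 6.56e-05) and with scaling outside the repeats (−0.21, adjusted p = 0.00541). Of all 113 genes, 50 rose and 47 fell in sig2-2 when centred. Counts of calls over all genes are not given for scaling outside the repeats.

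Single windows in sig2-2 did change past the test, in 37 of the 90, 25 higher and 12 lower, where 87.8% of all windows did (69.4% higher, 18.5% lower). The trnS window at 2655 bp fell by 1.47 ± 0.10 (SE, adjusted p = 1.78e-14), where Col0 stood at 1.83 ± 0.05 (SD, n = 3), to 0.37, 0.36 and 0.35 in the sig2-2 replicates. The fall covered 7 of the 11 windows between psbC and psbZ and the last 2 of psbC. Beside trnT, the first window fell by 0.78 ± 0.15 (adjusted p = 1.64e-05). Across the rest of the spacer 15 of 25 windows were higher, most at −645 bp (0.52 ± 0.13, adjusted p = 3.52e-04), where Col0 was at −0.61 ± 0.15 and sig2-2 at −0.09 ± 0.06. With libraries centred on the median window this change was −0.05. Within psbD 8 of 22 windows were higher and none lower. Centring moves every window of a comparison by the same amount, and the rise at −645 bp was the largest of the stretch. No rise in the spacer or psbD therefore remains under that centring. The window at −945 bp, the upstream summit of sig2-2, was at 0.44 ± 0.12 in that line and 0.32 ± 0.17 in Col0. The difference of 0.12 ± 0.11 did not pass the test (limma, adjusted p = 0.317).

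Within a library, the log2 ratio of psbD to psbZ lay nearer to 0 in sig2-2 than in Col0, and that of psbD to psbC farther from it. psbD minus psbZ was −0.43, −0.36 and −0.47 in Col0 ChIP and −0.19, 0.08 and −0.25 in sig2-2 ChIP, with inputs at −0.16 ± 0.07 and −0.12 ± 0.03. The ChIP libraries of the 2 lines did not overlap (difference 0.30, exact permutation p = 0.1). psbD minus psbC was −0.04, 0.04 and 0.02 in Col0 ChIP and 0.13, 0.11 and 0.12 in sig2-2 ChIP, again without overlap (difference 0.11, exact permutation p = 0.1). Spacer minus psbC overlapped between the lines (difference 0.09, exact permutation p = 0.5).

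In chl27 none of the members changed past the test against Col0, while 53.5% of all features did (40.4% higher, 13.2% lower). Values were −0.03 ± 0.10 for psbD (SE, adjusted p = 0.842), −0.08 ± 0.10 for psbC (adjusted p = 0.485), −0.03 ± 0.09 for psbZ (adjusted p = 0.771) and 0.11 ± 0.10 for the spacer (adjusted p = 0.353). Each 95% interval of the genes lay between −0.28 and 0.18. psbC passed when libraries were centred (−0.23, adjusted p = 0.0279), where 35 of all 113 genes rose and 27 fell. Of the 90 windows 6 changed, where 57.9% of all windows did (50.1% higher, 7.79% lower): the 5 windows around trnS were lower, with −0.44 ± 0.10 at 2655 bp (adjusted p = 0.00555), and the window at −645 bp was higher by 0.33 ± 0.13 (adjusted p = 0.0313). The latter missed the threshold in 5 fits that left out 1 library, without Col0 ChIP replicate 2 (0.24, adjusted p = 0.119), Col0 input 3 (adjusted p = 0.0680), chl27 ChIP replicate 1 (0.0532) or 2 (0.0723), or chl27 input 2 (0.0706). This rise at −645 bp also depended on the scaling. It was 0.04 with libraries centred on the median window (limma, adjusted p = 0.784) and 0.22 with scaling outside the repeats (adjusted p = 0.0890).

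In chlm 0 of 114 features changed past the limma test, with 8 at an unadjusted p under 0.05, so that 0% is the background here. psbD was among the 3 genes with the lowest changes of all 113. It changed by −0.31 ± 0.10 (SE; 95% interval −0.51 to −0.11; unadjusted p = 0.00358, adjusted p = 0.204), and all 3 chlm replicates lay below all Col0 replicates. With scaling outside the repeats the change was −0.36 with an adjusted p of 0.0380, and among the 63 features of at least 300 bp the adjusted p was 0.0490. When libraries were centred it was −0.23 (adjusted p = 0.125). How many of all features passed with scaling outside the repeats, or among those of at least 300 bp, is not given. psbC changed by −0.24 ± 0.10 (adjusted p = 0.490; 95% interval −0.44 to −0.05), also without overlap. psbZ was at −0.07 ± 0.09 and the spacer at 0.07 ± 0.10 (adjusted p = 0.975 for both). Of the 90 windows none passed, as over the whole plastid genome (0%). The lowest change was at 355 bp in psbD, at −0.45 ± 0.11 (adjusted p = 0.0708), and all 22 psbD windows had values between −0.45 and −0.18. That window passed when libraries were centred on the median window (−0.46), with scaling outside the repeats (−0.50), and without chlm replicate 2 (−0.49, adjusted p = 0.0411). The largest positive value was in the spacer at −1145 bp, at 0.61 ± 0.21 (adjusted p = 0.193). With a replicate block on ChIP and input of the same number, both windows passed (limma, adjusted p = 0.00606 at 355 bp and 2.98e-05 at −1145 bp). This block called 10% of the 90 windows, although the numbers do not pair the chlm and Col0 libraries by the correlation of their deviations. The share over all plastid windows is not given for the block, and the 0% above is not its background.

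The 4 tRNA genes beside or within the operon had higher mean values than its 3 protein-coding genes in all 6 groups, with trnS and trnfM closest to them in sig2-2. trnS between psbC and psbZ was at 1.77 ± 0.04 in Col0 and 0.34 ± 0.01 in sig2-2 (SD, n = 3), and trnfM (ArthCt099), the initiator tRNA gene downstream of psbZ, at 1.97 ± 0.09 and 0.34 ± 0.03. trnG (ArthCt116), which lies between psbZ and trnfM, was at 2.12 ± 0.04 in Col0 and 1.04 ± 0.20 in sig2-2, and trnT at 1.95 ± 0.12 and 1.09 ± 0.20.

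Of the other 12 plastid genes of photosystem II, 2 were above input and 8 below by Day (34.2% and 58.8% of all features), with a median of −0.59 beside −0.85 over all 113 genes. At Night 3 were above and 6 below (median −0.24 beside −0.35), for Col0 3 and 8 (−0.55 beside −0.50), for sig2-2 3 and 2 (−0.07 beside −0.17), for chl27 3 and 7 (−0.35 beside −0.36) and for chlm 2 and 8 (−0.52 beside −0.59). These counts depend on the scaling: centred on the median gene they were 6 above and 2 below by Day, 6 and 4 at Night, 5 and 5 for Col0, 7 and 1 for sig2-2, 5 and 5 for chl27 and 6 and 5 for chlm. Of all 113 genes, centring put 53 above and 51 below input by Day, 51 and 49 at Night, and 54 and 53 for Col0. It put 46 and 44 for sig2-2, 52 and 53 for chl27, and 55 and 52 for chlm. psbA was the highest of them in 5 groups, at 1.76 ± 0.16 by Day (SD, n = 3), 1.27 ± 0.03 at Night and 1.56 ± 0.06 in Col0. In sig2-2 psbN was the highest, at 0.97, and psbA stood at 0.91 ± 0.08. psbB, which encodes the antenna protein CP47, was at −1.05 ± 0.27 by Day, −0.74 ± 0.14 at Night and −0.67 ± 0.04 in Col0. The lowest was psbF by Day (−1.31) and at Night (−0.80), psbL in Col0 (−0.88) and chl27 (−0.55), psbK in sig2-2 (−0.39) and psbB in chlm (−0.84). Of the 5 photosystem I genes 4 were below input by Day, at Night, in Col0, chl27 and chlm, and 2 in sig2-2, while centred on the median gene 2 were below in each group but Night, where 3 were.

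From Day to Night, 5 of these 12 photosystem II genes rose, 1 fell and 6 did not pass, with a median of 0.32 (57.9% of all features rose and 12.3% fell). Centred on the median gene, 0 rose and 5 fell, where 35 of all 113 genes rose and 36 fell. psbA fell by 0.49 ± 0.14 (SE, adjusted p = 0.00323) and psbH, a small subunit, rose by 0.70 (adjusted p = 3.59e-04), which did not pass when centred (0.15). In sig2-2, 8 rose and 3 fell (52.6% and 33.3% of all features), from −0.66 ± 0.10 for psbA to 0.68 for psbH. psbB rose by 0.61 ± 0.11 (limma, adjusted p = 4.14e-06). When centred, 8 rose and 4 fell, where 50 of all 113 genes rose and 47 fell. In chl27, 3 rose and 1 fell, the latter being psbA (−0.23 ± 0.10, adjusted p = 0.0499), and psbL was highest at 0.34 (adjusted p = 0.0142), where 40.4% of all features rose and 13.2% fell. Centred, 0 rose and 1 fell, where 35 of all 113 genes rose and 27 fell. psbL did not pass then (limma, adjusted p = 0.0539). In chlm none passed, with values between −0.19 for psbN and 0.14 for psbL. Of the 5 photosystem I genes 2 rose at Night, 4 in sig2-2, 2 in chl27 and 0 in chlm, and none fell with this scaling. Centred on the median gene, 2 rose and 2 fell at Night, while 1 rose and 2 fell in chl27. With the same centring chlm had 0 rises and 1 fall, the same counts as over all 113 genes, and sig2-2 had 2 rises and 0 falls. The genes that fell were psaA and psaB, the reaction centre genes, at Night (−0.66, adjusted p = 0.00258, and −0.82, adjusted p = 6.83e-04) and in chl27 (−0.25 and −0.24), and psaA in chlm (−0.28, adjusted p = 0.0355). With scaling outside the repeats both fell in chlm, by 0.41 (adjusted p = 0.0264) and 0.35 (adjusted p = 0.0380). Counts of calls over all genes are not given for that scaling.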

How the data were processed

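The authors deposited 1 leaf table and 1 seedling table with the coverage of 154477 plastid positions per library, as whole numbers without scaling (checked on the values). Per the submitters' processing notes, Trim Galore 0.4.1, Bowtie2 2.2.8.9, bedtools 2.25.0 and TAIR10 were used; the roles and settings of these tools, duplicate handling and the placement of repeat reads are not given in the sources used here. Neighbouring positions share reads, so coverage was not treated as a count and no count model was run.

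Gene spans came from RefSeq (TAIR10.1). Annotated repeat pairs mirror about a sum of 238649, and coverage mirrored itself at the same sum in every library (largest difference 0 bp). After 15 genes with 2 copies were merged, 113 genes remained. Mean coverage per gene or 50 bp window was divided by the library total, scaled to a common total per kb, 1 was added and log2 taken. With 0.1 or 10 added instead, all 141 recomputed values counted as unchanged, by direction and call for genes and windows and by a set ratio for shares of windows. limma 3.58.1 in R 4.3.3 (group means, eBayes with trend) was fitted to all libraries of a table at once, with Benjamini-Hochberg adjustment over 114 features or 2592 windows (the second repeat copy left out) and a threshold of 0.05; the tables were not fitted together. Single replicates are given as log2 ChIP less the mean log2 of the inputs of the same group. Ratios within a library were tested by exact two-sided permutation (scipy 1.17.1), adjusted over 40 relations. The fit was tested on simulated data. Precision is limited by the spread of 3 replicates. Whether replicate numbers pair libraries was checked by the correlation of deviations from group means. It was above 0.1 in 12 of 18 pairs of ChIP and input (−0.10 to 0.62), and in every pair of Day (0.28, 0.62 and 0.52) and sig2-2 (0.11, 0.35 and 0.62). Between ChIP libraries and their reference ChIP it was above 0.1 in 7 of 12 pairs (−0.14 to 0.46), and in every pair of sig2-2 and Col0 (0.34, 0.38 and 0.42). In those sets the numbers count as paired, a hint from the data and not from the labels. The main fits and the permutation tests did not use this pairing, and their p-values treat the libraries as unpaired. Fits with a replicate block were run as alternatives.

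The members, lists and comparisons were chosen with earlier results of these data known. Named were the members, the flanking tRNA genes, psbA, psbB, the highest and lowest other photosystem II gene per comparison, the 5 nearest genes, and the extreme windows. Alternatives were other scalings, pseudocounts of 0.1 and 10, median coverage, windows of 25 and 100 bp, gene length and coverage minimums, other fits and leaving out each library.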

Additional observations from a re-analysis of the deposited data

Results flagged for a closer look

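Each value here differed between the 2 groups of its comparison past the limma threshold. From Day to Night, psbC changed by −0.46, and the flanking tRNA genes trnT, trnS and trnG by 0.93, −0.46 and 0.38. The change of trnT did not pass when libraries were centred on their median gene (0.39), and that of trnG turned sign. Of the operon windows, the one next to trnT changed by 0.95 and the one at 2505 bp, between psbC and trnS, by −0.62. The window next to trnT did not pass when libraries were centred on the median window (0.07).

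In sig2-2 against Col0, trnT, trnS, trnG and trnfM changed by −0.86, −1.43, −1.07 and −1.64, and the 3 operon genes between trnT and trnfM had no call. The window at −645 bp changed by 0.52 and the window at 2655 bp, over trnS, by −1.47. With libraries centred on the median window, the sig2-2 change at −645 bp turned to −0.05. In chl27 against Col0, trnS, trnG and trnfM changed by −0.43, −0.40 and −0.27, the window at −645 bp by 0.33 and the window at 2655 bp by −0.44. The change at −645 bp in chl27 did not pass when libraries were centred on the median window (0.04). The sig2-2 and chl27 comparisons share the Col0 libraries.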

How the results depend on the processing

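Among the alternatives, scaling moved many results. Even so, 78 of 111 recomputed values counted as unchanged when centred on the median gene. This count was 106 of 141 with scaling outside the repeats and 11 of 30 when centred on the median window. What counts as unchanged is defined near the end of this section. Centred on the median gene, ChIP against input of psbD was 1.08 for Day, 0.52 for Night, 0.55 for Col0, 0.37 for chl27 and 0.32 for chlm, all past the test; psbC was 1.14 for Day, 0.12 for Night, 0.62 for Col0, 0.39 for chl27 and 0.45 for chlm, psbZ 0.48 for Night, and the spacer 0.45 for Col0, 0.25 for sig2-2, 0.41 for chl27 and 0.60 for chlm. The centred changes were −0.56 (Night) and −0.17 (sig2-2) for psbD, −0.70 (Night), −0.43 (sig2-2) and 0.0018 (chlm) for psbZ, −0.33 (Night), −0.20 (sig2-2) and −0.042 (chl27) for the spacer, and −0.28 (sig2-2) and −0.23 (chl27) for psbC. Among other genes, psbB turned to 0.12 against input in sig2-2 and to −0.24 from Day to Night, trnG to −0.16 and trnfM to −0.40 from Day to Night. Scaled to coverage outside the repeats, psbD stood at 0.54 for Day, 0.26 for Col0 and −0.10 for chlm, psbC at 0.60, 0.33 and 0.032, and the spacer at 0.16 for Col0, 0.18 for sig2-2, 0.16 for chl27 and 0.18 for chlm. Changes were then −0.45 (Night) and −0.36 (chlm) for psbD, −0.60 (Night) and −0.21 (sig2-2) for psbZ, −0.23 (Night) and −0.0028 (chl27) for the spacer, and −0.058 (sig2-2) for psbC. psbB turned to 0.047 against input in sig2-2 and to −0.13 at Night, trnG to −0.059 and trnfM to −0.30 at Night, and in chlm trnfM to −0.011 and trnS to −0.0066. The causes of these shifts were not tested beyond the scaling itself, which moves all genes of a library together.

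Of the 90 windows, the share called with libraries centred on the median window was 100% for Day, 92.2% for Night, 100% for Col0, 98.9% for sig2-2 and 100% for chl27 (51.1%, 52.2%, 58.9%, 45.6% and 46.7% uncentred), and for changes 85.6% for Night, 82.2% for sig2-2, 72.2% for chl27 and 13.3% for chlm (36.7%, 41.1%, 6.67% and 0%). With scaling outside the repeats it was 76.7% for Day, 78.9% for sig2-2, 68.9% for Night minus Day, 13.3% for chl27 and 10% for chlm. Shares over all plastid windows are not given for these scalings, so an excess over the plastid genome cannot be read from them. Centring turned the lowest windows to 1.01 for Day, 0.24 for Night and 0.19 for chl27 (at −245 bp), 0.24 for Col0 and 0.17 for chlm (at −195 bp) and 0.14 for sig2-2 (at −295 bp), and the change at −645 bp in sig2-2 to −0.045. With median coverage, the spacer was −0.13 for Day, −0.10 for Night, −0.37 for Col0, −0.063 for sig2-2, −0.18 for chl27 and −0.38 for chlm, its change 0.30 for sig2-2 and −0.0081 for chlm, its ratio to psbC over input −0.34 for Day, −0.20 for chl27 and −0.24 for chlm, and psbD in chl27 −0.0096. In Day, psbZ (0.25) missed the threshold without the variance trend and with the leaf groups alone in the fit, and the spacer (0.44) among features of mean coverage of at least 100. Without the bases that psbD and psbC share, psbD changed by 0.0016 from Day to Night; among features of at least 300 bp, psbD in chlm (−0.31) passed. Inputs fitted alone gave 15, 15, 2 and 14 called features in Night, sig2-2, chl27 and chlm, where the shared fit gave 0; the cause was not tested.

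Leaving out single libraries gave ranges, for ChIP against input, of 0.060 to 0.25 (psbD, Day), 0.11 to 0.30 (psbC, Day), 0.15 to 0.41 (psbZ, Day), 0.25 to 0.77 (spacer, Day), −0.34 to −0.20 (psbC, Night), 0.12 to 0.24 and 0.077 to 0.21 (psbD and psbC, sig2-2), −0.011 to 0.063 (psbD, chl27), and −0.18 to −0.064 and −0.067 to 0.070 (psbC and spacer, chlm). For changes they were −0.12 to 0.075 (psbD, Night), −0.32 to −0.061 (psbZ, Night), −0.12 to 0.40 (spacer, Night), −0.035 to 0.097 (psbC, sig2-2), −0.058 to 0.020 and −0.070 to 0.0092 (psbD and psbZ, chl27) and −0.011 to 0.13 (spacer, chlm). The share of windows called ran from 20% (without sig2-2 ChIP replicate 2; 26.7% without input replicate 3) to 55.6% for sig2-2, from 23.3% (without Day input replicate 2) to 55.6% (without Day ChIP replicate 3) for Night minus Day, from 4.44% to 14.4% (without Col0 ChIP replicate 3; 12.2% without chl27 ChIP replicate 1) for chl27 and from 0% to 2.22% for chlm. The lead of psbD over the median protein-coding gene differed by −1.02 to −0.85 between Night and Day, and the psbD to psbC ratio by 0.085 to 0.13 for sig2-2 and 0.0049 to 0.047 for chl27. A replicate block on ChIP and input of the same number raised the share of windows called in chlm from 0% to 10% (with the windows at 355 and −1145 bp) and left the other calls it was run on as they were; a block across groups changed no call. Pseudocounts of 0.1 and 10 changed no direction or call of a gene or window. Windows of 25 and 100 bp were compared only by the share of windows called. That share stayed within a set ratio of its value at 50 bp in all 10 comparisons. In all, 1608 of 1776 recomputed values counted as unchanged. For tested genes and windows this meant the same direction and call. Shares of windows and counts of features had to stay within a set ratio of the main value. For ratios within a library, leaving out a library had to move the difference by less than the SD, whatever its sign. How far depth limits the leaf windows was not tested; the Night ChIP libraries had the lowest coverage.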

Other observations

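The spacer differed between inputs of the 2 tables in a way no comparison above uses. Spacer minus psbC coverage within a library was −0.50 ± 0.19 (log2, SD, n = 3) in Day inputs and −0.39 ± 0.08 in Night inputs, and 0.16 ± 0.08 for Col0, 0.18 ± 0.10 for sig2-2, 0.04 ± 0.07 for chl27 and −0.03 ± 0.04 for chlm inputs. The tables were made separately, and this was not tested.

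Rises inside the operon differed in how evenly replicates showed them. The step from the trough ahead of psbD to the summit inside it was 1.28, 0.69 and 1.30 in the Day replicates, 1.75, 1.21 and 1.20 at Night, 0.73, 0.95 and 0.76 for Col0, 0.38, 0.68 and 0.27 for sig2-2, 0.54, 0.50 and 0.65 for chl27 and 0.69, 0.41 and 0.51 for chlm. From the trough within psbD to the summit ahead of psbC it was 0.79, 1.16 and 1.35 by Day, 0.98, 0.78 and 0.64 at Night, 0.77, 0.93 and 0.76 for Col0, 0.25, 0.26 and 0.26 for sig2-2, 0.59, 0.51 and 0.54 for chl27 and 0.92, 0.85 and 0.95 for chlm. These steps do not depend on the scaling of a library, were chosen after the profiles had been seen and carry no test.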
